A study of Mus musculus with 2 samples.

Results

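The imprinted growth genes described here are 10 genes (H19, Igf2, Mest, Dlk1, Meg3, Peg3, Plagl1, Cdkn1c, Grb10 and Ndn) of the 22072 genes in the tables. They were chosen by name, with earlier results of these data known, and found by their symbol in the tables of 2 whole-lung RNA libraries of C57/BL6 mice. The control pool came from Foxf1 fl/fl mice, which carry floxed Foxf1 alleles and no Cre. The knockout pool came from Pdgfb-iCreER / FoxF1 fl/fl mice, which carry the floxed alleles and an inducible Cre recombinase driven by Pdgfb, a gene of endothelial cells. Each group is 1 library, made from a pool of the lung RNA of several mice. How many mice were pooled, their age and sex, and when Cre was induced are not stated in the labels. With no Cre in the control mice, effects of the Cre transgene and of reduced Foxf1 cannot be told apart. Nor can the genotype be told apart from any difference in age, sex or handling between the pools, and imprinted growth genes are known to vary with age.

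An imprinted gene is expressed mainly from the allele of a single parent. A nearby control region carries methylated CpG sites on either the maternal or the paternal copy, and this sets which allele is active. Many imprinted genes act on fetal growth: Igf2 drives it, while Cdkn1c and Grb10 restrain it. In many mouse organs, lung included, a group of these genes is high before birth and is turned down as growth slows after it. H19 and Igf2 share one control region, and Dlk1 and Meg3 share another, so that in each pair the noncoding RNA comes from the maternal allele and the protein-coding gene from the paternal one. FPKM values do not separate the alleles, so they say nothing about imprinting itself.

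The libraries held about 13.2 M (control) and 10.4 M (knockout) reads on transcripts, estimated from the coverage column. Foxf1, listed as Foxf1a, stood at 72.1 FPKM in control lung and 15.7 FPKM in knockout lung, 4.59-fold lower (3.97 to 5.34). Markers of alveolar type 2 cells were high in both, with Sftpc, a surfactant protein gene, at 15925 and 13793 FPKM. Folds are plain FPKM ratios, and the range after each is a 95% counting interval from the approximate reads. It covers counting error only, not differences between mice, pools or preparations. In whole-lung RNA, fewer cells of a type and less RNA per cell cannot be told apart. No difference has a replicate check, and the members were chosen with this contrast known, so their values are a description without a test.

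Of the 10 members, H19 and Mest stood far higher in knockout lung, Igf2 and Meg3 were 2.08-fold and 1.99-fold higher, Ndn was moderately higher, Cdkn1c, Grb10 and Peg3 were close to level, Plagl1 was lower and Dlk1 was listed at 0. On the log2(FPKM + 1) scale, 4 of the 9 members with a mean FPKM of 1 or more (the floor) were at least 1.5-fold higher in knockout lung and 0 were at least 1.5-fold lower. H19 is over the floor through its level in knockout lung alone. Among all 12929 genes over the floor, 9.41% were at least 1.5-fold higher and 4.63% at least 1.5-fold lower. These shares were 7.64% and 6.12% when the libraries were scaled to equal sums without the 100 most abundant genes. The median log2 ratio, knockout minus control, was 0.57 over the 9 members and 0.05 over all genes over the floor. Without H19 and Mest the median of the other 7 was 0.15. The summed level of the members was 60.4 FPKM in control lung and 110 FPKM in knockout lung, and H19 with Mest made up 6.82% of that sum in control lung and 39.4% in knockout lung.

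**Figure D1:**
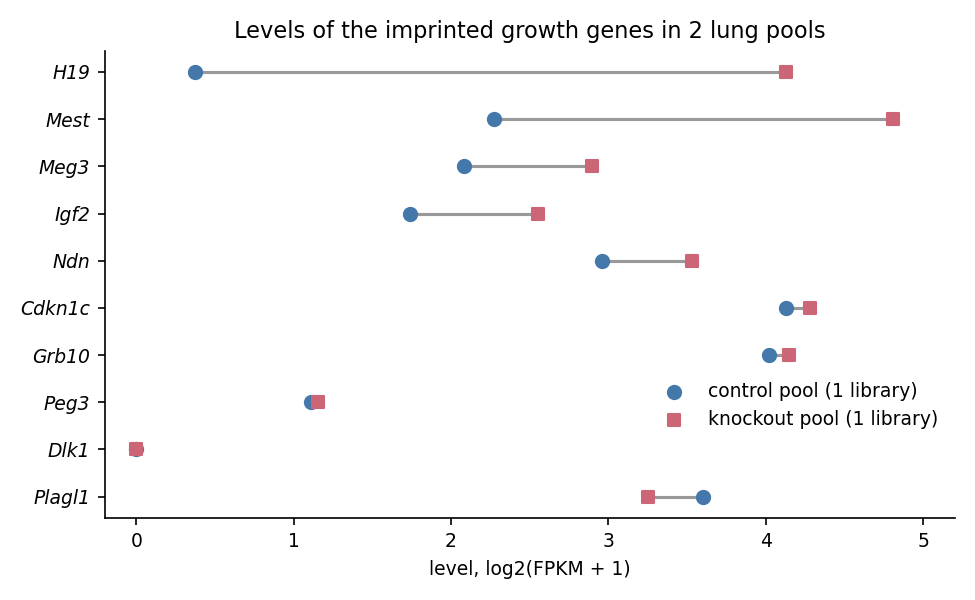
Level of each of the 10 members on the log2(FPKM + 1) scale in control lung (circles) and knockout lung (squares), 1 library each, ordered by the log2 ratio with the highest on top. H19 and Mest span the longest distances, Plagl1 alone lies to the left in knockout lung, and Dlk1 is at 0 in both.

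The order of the members also differed between the libraries. In control lung Cdkn1c (16.5 FPKM) and Grb10 (15.2 FPKM) led, followed by Plagl1, Ndn, Mest, Meg3, Igf2, Peg3, H19 and Dlk1. In knockout lung Mest (26.9 FPKM) led, followed by Cdkn1c, Grb10, H19, Ndn, Plagl1, Meg3, Igf2, Peg3 and Dlk1. Counting intervals of neighbours in this order overlapped in control lung for Cdkn1c and Grb10, for Mest and Meg3 and for Meg3 and Igf2. In knockout lung they overlapped for Cdkn1c and Grb10, for Grb10 and H19 and for Ndn and Plagl1. H19 was the ninth member in control lung and the fourth in knockout lung, and Mest the fifth and the first.

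**Figure D2:**
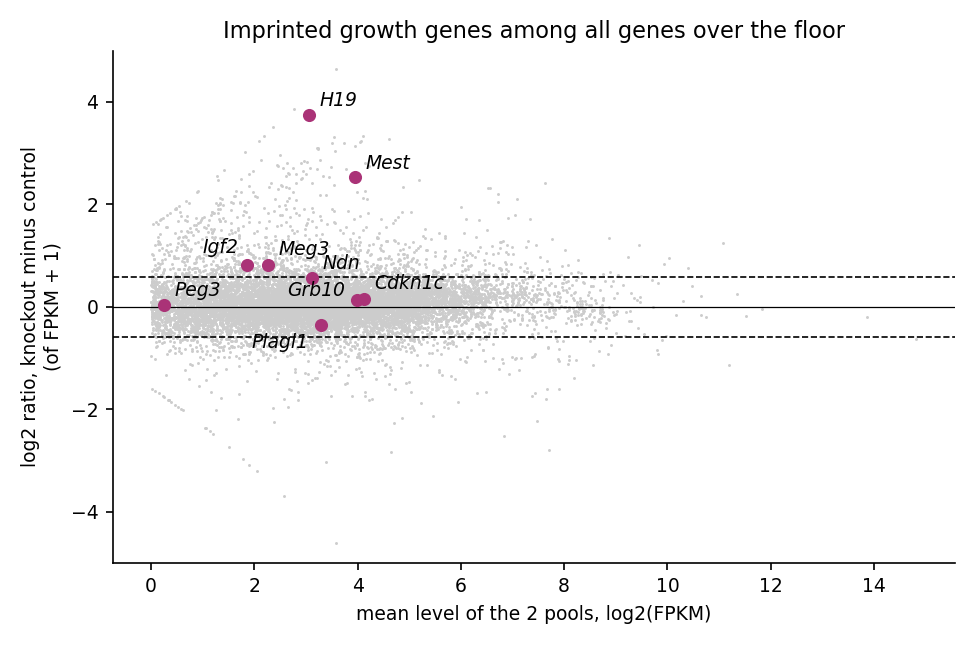
Log2 ratio, knockout minus control (of FPKM + 1), against the log2 of the mean FPKM of the pools for the 12929 genes over the floor (grey) and the 9 members over it (coloured, labelled). Dashed lines mark a fold of 1.5, and 2 genes lie beyond the vertical axis. H19, Mest, Igf2 and Meg3 lie above the upper line, Ndn just under it, and the other 4 members between the lines.

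H19, a long noncoding RNA that is abundant in fetal tissues, showed the largest fold of the members. It stood at 0.295 FPKM in control lung, from about 12.7 reads, and at 16.5 FPKM in knockout lung, from about 550 reads. The knockout pool was thus 55.8-fold higher (32.4 to 105), place 4 of the 12929 genes over the floor by log2 ratio. In control lung H19 lay at percentile 0.333 of these genes by level, and in knockout lung at percentile 67.7. The files place H19 on chromosome 7 from 149761437 to 149764051 (mm9), as 1 transcript of 2615 bases.

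H19 is also the host of the microRNA miR-675, whose mature arms are shown because their record lies wholly inside the member with the largest fold. Seeds (bases 2 to 8) are in capitals, from RefSeq (GRCm38.p6).
mmu-miR-675-5p: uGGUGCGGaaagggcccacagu
mmu-miR-675-3p: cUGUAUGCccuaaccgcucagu
The arms share no seed. The record of the 84-base hairpin, Mir675, was listed at 0 in control lung and at 8.47 FPKM in knockout lung. Reads of H19 cover the same bases, so this record does not separate the microRNA from its host.

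Igf2 encodes insulin-like growth factor 2, a fetal growth factor, and lies 72.6 kb from H19, on chromosome 7 from 149836673 to 149846940 (mm9). Its level was 2.34 FPKM in control lung and 4.87 FPKM in knockout lung, 2.08-fold higher (1.68 to 2.57). Both genes of the pair were higher in knockout lung, by different folds: the H19 level divided by the Igf2 level was 0.126 in control lung and 3.38 in knockout lung. Mrpl23, a mitochondrial ribosomal protein gene and the nearest gene over the floor on the H19 side, stood at 25.6 and 32.1 FPKM, and Ins2, an insulin gene next to Igf2, was listed at 0 in both pools.

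The Igf2 reads were divided among 3 transcript records that start at different promoters. NM_001122737 held most of the level, with 1.66 FPKM in control lung and 3.05 FPKM in knockout lung, 1.84-fold higher (1.42 to 2.40). NM_010514 was at 0.683 and 0.850 FPKM, 1.24-fold higher (0.802 to 1.93), an interval that includes equality. NM_001122736, whose start lies farthest upstream, was at 8.32e-06 FPKM in control lung, which is less than 1 read, and at 0.966 FPKM in knockout lung, from about 45.6 reads. It made up 19.8% of the Igf2 level in knockout lung. All 3 records end at the same position and share exons, so the split among them is an estimate of the authors' quantification and is less certain than the sum. Igf2as, an antisense RNA that overlaps Igf2 by 1343 bases, was at 0.0790 and 0.0337 FPKM.

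The promoters of these 2 records are shown because their transcripts carried most of the Igf2 difference. Sequences are from RefSeq (GRCm38.p6), 5′ to 3′ on the gene's minus strand, from 250 bases before to 50 after the start, with CpG sites in capitals. The first is chr7:142661222-142661521 and the second chr7:142657447-142657746.
NM_001122736 promoter: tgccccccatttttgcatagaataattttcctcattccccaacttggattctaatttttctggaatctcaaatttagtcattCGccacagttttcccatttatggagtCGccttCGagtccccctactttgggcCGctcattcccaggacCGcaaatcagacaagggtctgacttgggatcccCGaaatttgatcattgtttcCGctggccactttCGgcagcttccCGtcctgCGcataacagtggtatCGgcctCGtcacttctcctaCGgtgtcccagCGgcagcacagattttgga
NM_001122737 promoter: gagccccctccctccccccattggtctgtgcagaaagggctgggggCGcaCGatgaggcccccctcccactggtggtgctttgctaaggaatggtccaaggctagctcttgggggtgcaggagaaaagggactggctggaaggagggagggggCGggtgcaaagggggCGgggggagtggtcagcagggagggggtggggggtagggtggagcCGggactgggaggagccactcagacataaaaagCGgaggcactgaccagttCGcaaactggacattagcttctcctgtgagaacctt
The upstream promoter held 14 CpG sites and the downstream one 7, against a median of 7 over all 32851 promoters of this length. The downstream promoter held 2 matches of the GC box GGGCGG on either strand, which 35.7% of all promoters hold, and the upstream one held 0.

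Mest, the mesoderm-specific transcript, encodes a protein of the hydrolase fold and is expressed in embryonic mesoderm and in growing fat tissue. Its level was 3.83 FPKM in control lung and 26.9 FPKM in knockout lung, from about 160 and 875 reads. This was 7.04-fold higher (5.94 to 8.38), place 50 of all genes over the floor by log2 ratio, and it took Mest from percentile 24.1 to percentile 80.2 of these genes by level. The gene lies on chromosome 6 from 30688063 to 30698457 (mm9) and has 1 record, NM_008590. Its promoter is shown because Mest was the most abundant member in knockout lung. In mouse this promoter is the methylated region that sets the imprint. The sequence is chr6:30737800-30738099 on the plus strand (GRCm38.p6, RefSeq), with CpG sites in capitals.
Mest promoter: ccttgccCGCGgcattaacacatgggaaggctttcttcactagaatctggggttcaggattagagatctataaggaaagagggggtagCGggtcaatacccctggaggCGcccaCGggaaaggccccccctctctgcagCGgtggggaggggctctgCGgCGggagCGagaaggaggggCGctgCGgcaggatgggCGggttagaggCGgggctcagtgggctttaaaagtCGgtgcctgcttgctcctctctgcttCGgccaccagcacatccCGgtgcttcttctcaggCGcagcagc
It held 17 CpG sites, at percentile 69.4 of all promoters of this length, and 1 GC box.

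Around Mest the difference was uneven. Copg2, a coat protein gene that is itself listed as imprinted, runs into the end of Mest and overlaps it by 47 bases. Its level was 10.4 FPKM in control lung and 14.0 FPKM in knockout lung, 1.35-fold higher (1.20 to 1.52). Tsga14, the nearest gene over the floor on the other side, was 1.90-fold higher (1.44 to 2.51), at 1.62 and 3.08 FPKM. Mir335, a microRNA record inside Mest, was listed at 0 in both pools. The Mest level divided by the Copg2 level was 0.368 in control lung and 1.92 in knockout lung.

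Meg3, a long noncoding RNA of the maternal allele, was higher in knockout lung, and its partner Dlk1 was not detected in either. Meg3 stood at 3.23 FPKM in control lung and 6.43 FPKM in knockout lung, 1.99-fold higher (1.62 to 2.45). It lies on chromosome 12 from 110779206 to 110809939 (mm9). Of its 3 records, the short NR_027652 made up 89.3% of the level in control lung and 90.3% in knockout lung, so the makeup of Meg3 hardly differed between them. NR_003633 was 1.76-fold higher (1.26 to 2.47), at 0.338 and 0.596 FPKM. The Meg3 records overlap, so this split is also less certain than the sum.

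The genes downstream of Meg3 on the maternal allele showed the same direction. Rian, a noncoding RNA that hosts small nucleolar RNAs, lies 32.2 kb from Meg3 and was at 1.57 FPKM in control lung and 3.91 FPKM in knockout lung, 2.49-fold higher (1.93 to 3.24). Mirg, a microRNA host farther on, was below the floor, at 0.0929 and 0.360 FPKM, from about 1.99 and 5.97 reads, 3.88-fold higher with an interval that includes equality (0.693 to 39.3). Of 57 microRNA records within 500 kb of Meg3, 56 were listed at 0 in both pools. The exception was Mir1906-1, inside Meg3 and sharing its reads, at 3.63 and 9.31 FPKM. Rtl1, a paternally expressed gene antisense to part of this cluster, was listed at 0 in both.

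Dlk1 encodes a membrane protein related to the Notch ligands that holds back fat cell differentiation. All 5 of its records were listed at 0 in both pools. If these zeros stand for a count of 0, a limit of 3 reads allows up to 0.0449 FPKM in control lung and 0.0580 FPKM in knockout lung for its shortest record. None of 72 ribosomal protein genes was listed at 0 in either library, but these are abundant genes. They cannot tell what a listed 0 means for a scarce gene. Dlk1 lies 77.7 kb from Meg3, and of this pair the noncoding partner alone was detected.

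The Meg3 promoter is shown because 2 of the 3 Meg3 records, NR_027651 and NR_027652, begin there. It is chr12:109540746-109541045 on the plus strand (GRCm38.p6, RefSeq), with CpG sites in capitals.
Meg3 promoter: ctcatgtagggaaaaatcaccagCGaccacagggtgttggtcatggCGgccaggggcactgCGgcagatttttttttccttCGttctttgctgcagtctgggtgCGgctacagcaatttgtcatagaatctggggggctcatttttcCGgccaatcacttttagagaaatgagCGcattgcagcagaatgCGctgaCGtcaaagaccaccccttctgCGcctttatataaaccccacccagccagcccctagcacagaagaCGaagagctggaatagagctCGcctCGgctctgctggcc
It held 13 CpG sites and no GC box, and 2 overlapping matches of TATAAA, 1 on each strand, a motif that 13.6% of all promoters hold on either strand. The motif GGGGCCCC, bound by the protein of the member Plagl1, was searched for in the 15 promoter entries of the 8 members that matched the table by symbol. It occurred in 1 of them, the Peg3 promoter, and in 1.08% of all promoters. These matches are descriptions of letters, not of binding.

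Cdkn1c encodes p57, an inhibitor of cyclin-dependent kinases, and lies on chromosome 7 from 150644244 to 150646955 (mm9). Its level was 16.5 FPKM in control lung and 18.4 FPKM in knockout lung, 1.12-fold higher, with an interval that includes equality (0.981 to 1.27). Its main record NM_009876 was level, at 13.6 and 13.7 FPKM. The second record, NM_001161624, was 1.63-fold higher (1.23 to 2.17), at 2.88 and 4.70 FPKM. Both Cdkn1c records span the same positions, so this split is less certain than the sum, and the counting intervals do not cover that.

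Grb10 encodes an adaptor that binds the insulin and IGF1 receptors and dampens their signal. It was at 15.2 FPKM in control lung and 16.7 FPKM in knockout lung, 1.10-fold higher (1.01 to 1.19), and lies on chromosome 11 from 11830502 to 11937423 (mm9). Its records went in opposite directions. NM_010345, which starts at the CpG-rich upstream promoter with 45 CpG sites, was 1.21-fold higher (1.10 to 1.33), and NM_001177629, which starts at a promoter with 9, was 1.21-fold lower (1.02 to 1.44). Both Grb10 records end at the same position, so this split is less certain than the sum, and the counting intervals do not cover that. A switch of promoters was not tested.

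Plagl1 encodes a zinc finger transcription factor, known as ZAC1, that has been described as a regulator of other imprinted genes. It was the single member with a lower level in knockout lung, at 11.1 FPKM in control lung and 8.51 FPKM in knockout lung, 1.31-fold lower (1.18 to 1.45). The gene lies on chromosome 10 from 12810594 to 12851501 (mm9). Ndn encodes necdin, a growth suppressor of neurons and other cells, and lies on chromosome 7 from 69493163 to 69494813 (mm9). Ndn was at 6.77 FPKM in control lung and 10.6 FPKM in knockout lung, 1.56-fold higher (1.28 to 1.90). On the log2(FPKM + 1) scale its ratio of 0.57 fell just short of a fold of 1.5. Peg3, a zinc finger gene on chromosome 7 from 6658671 to 6683130 (mm9), was at 1.16 and 1.22 FPKM, 1.05-fold higher with an interval that includes equality (0.803 to 1.38). Apeg3, an antisense RNA whose 865 bases lie wholly inside Peg3, was at 1.04 and 0.946 FPKM, and without strand its reads and those of Peg3 cannot be told apart.

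Split by the parental allele that is normally active, both sets held members that were higher. Of all genes over the floor, 9.41% were at least 1.5-fold higher and 4.63% at least 1.5-fold lower. H19 passed the floor through knockout lung alone. Of the 4 maternally expressed members, H19 and Meg3 were at least 1.5-fold higher and Cdkn1c and Grb10 were within that fold, with a median log2 ratio of 0.48. Of the 5 paternally expressed members over the floor, Mest and Igf2 were at least 1.5-fold higher and Ndn, Peg3 and Plagl1 were within it, with a median of 0.57.

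Within 500 kb of a member 174 other genes are listed, of which 94 were at 0 in both pools and 52 were over the floor. MicroRNA records made up 67 of the 174 and 64 of the 94. Of these 52, 9 (17.3%) were at least 1.5-fold higher and 1 (1.92%) was at least 1.5-fold lower, against 9.41% and 4.63% of all genes. Their median log2 ratio was 0.15, against 0.05 over all genes. Mir675 and Mir1906-1, which lie inside H19 and Meg3, are among the 9 and share reads with these members. Mir1906-1 had about 4.79 and 9.51 reads, and the interval of its fold includes equality (0.798 to 9.56). Of the 9, 2 are over the floor through knockout lung alone: Mir675 and Fignl1, which lies near Grb10. Ctsd, a lysosomal protease gene 188 kb from H19 and named after its values were seen, is another of the 9, at 249 and 397 FPKM. Tspan32, a tetraspanin gene and the nearest over the floor on the other side of Igf2, was at 2.61 and 3.72 FPKM. Begain, the nearest to Dlk1 and Meg3 on their left, was at 1.04 and 1.03 FPKM. The nearest neighbours of Cdkn1c were Kcnq1, a potassium channel gene, 1.24-fold lower (1.06 to 1.46) in knockout lung, and Slc22a18, a transporter gene, at 5.31 and 4.55 FPKM. Farther from Cdkn1c, the decoy receptor genes Tnfrsf22 and Tnfrsf23, named after their values were seen, were 1.92-fold (1.42 to 2.61) and 2.80-fold higher (2.09 to 3.78). Tssc4, which lies between the H19 and Cdkn1c ends of this region, was 1.58-fold higher (1.33 to 1.88).

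Near Grb10, Ddc, a decarboxylase gene, was at 1.29 FPKM in control lung and 1.10 FPKM in knockout lung, and Cobl at 9.91 and 8.41 FPKM. The DNA repair gene Fignl1, also named after its values were seen, was 7.70-fold higher (5.30 to 11.5), at 0.673 and 5.18 FPKM. Near Plagl1, Ltv1 was 1.45-fold higher (1.23 to 1.71) and Sf3b5 1.23-fold higher (1.06 to 1.41). The 1 neighbour that was at least 1.5-fold lower was Phactr2, 76.0 kb from Plagl1 and named after its values were seen, at 21.4 and 13.3 FPKM, 1.61-fold lower (1.51 to 1.71). Usp29, which starts 0.322 kb from Peg3 and is imprinted like it, was listed at 0 in both pools, and Zim1 on the other side was at 0.0706 and 0.0228 FPKM. None of the 9 neighbours of Ndn was over the floor: its imprinted neighbours Mkrn3 (0.523 and 0.531 FPKM), Peg12 (0.733 and 0.806 FPKM) and Magel2 (0.0123 and 0 FPKM) were all scarce. Of the 7 neighbours of Peg3 over the floor, the zinc finger genes Zfp28 (1.35 and 1.78 FPKM) and Zfp954 (4.02 and 4.69 FPKM) were the nearest on each side, and 0 were past a fold of 1.5 in either direction.

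**Figure D3:**
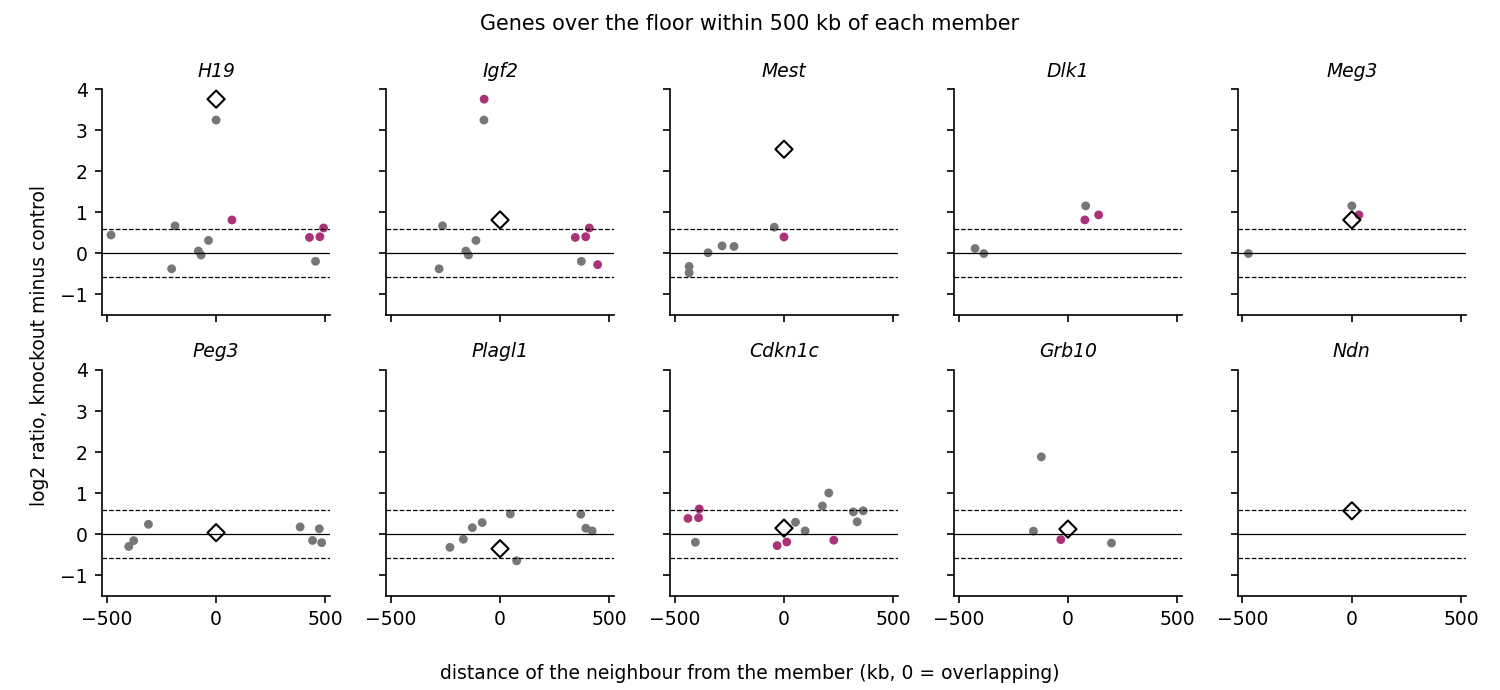
Log2 ratio, knockout minus control (of FPKM + 1), of genes over the floor within 500 kb of each member against their distance in kb in mm9, left and right by position on the chromosome. Open diamonds are the member, coloured points other members or listed imprinted genes, grey points other genes, and dashed lines a fold of 1.5. Around Mest no neighbour comes near the member's ratio of 2.53, and around Meg3 the points at its own position and to its right lie at or above its ratio of 0.81.

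Of 48 imprinted genes outside the 10 members, 27 were over the floor. Of these, 4 (14.8%) were at least 1.5-fold higher and 2 (7.41%) at least 1.5-fold lower, against 9.41% and 4.63% of all genes, with a median log2 ratio of 0.17 against 0.05. Which parental allele is active in lung was not measured, so a split by allele follows the lists alone. Of the 15 listed as maternally expressed and over the floor, 2 (13.3%) were higher and 0 lower, with a median of 0.30. Rian led them and Tssc4 was the other, and both are also among the 9 higher neighbours of the members, so these sets overlap. Ppp1r9a, a neuronal scaffold gene, was the lowest, at 7.53 FPKM in control lung and 4.98 FPKM in knockout lung. The most abundant were the tetraspanin gene Cd81, 1.32-fold higher (1.27 to 1.38), and H13, a signal peptide peptidase gene, 1.13-fold higher (1.05 to 1.21).

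Of the 12 listed as paternally expressed and over the floor, 2 (16.7%) were higher and 2 (16.7%) lower, against 9.41% and 4.63% of all genes. Their median log2 ratio was -0.0039. Nnat, which encodes neuronatin, was the highest, at 8.58 FPKM in control lung and 14.8 FPKM in knockout lung, 1.73-fold higher (1.41 to 2.12). Slc38a4, an amino acid transporter gene, was the lowest, at 6.61 and 3.42 FPKM, 1.94-fold lower (1.62 to 2.33). The second genes in each direction, named after their values were seen, were Mcts2 (2.47 and 4.37 FPKM) and Zrsr1 (10.5 and 5.79 FPKM). The abundant Gnas was 1.25-fold higher (1.22 to 1.29), and Sgce, a sarcoglycan gene, 1.16-fold higher (1.05 to 1.27). The Gnas level is a sum over its transcripts and does not separate products of the maternal and paternal alleles. Peg10, a retrotransposon-derived gene of placental growth, was below the floor at 0.711 and 0.595 FPKM.

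Around Igf2, the pathway it acts on was mixed. The 11 genes over the floor for the partner ligand, the receptors and their signalling had a median log2 ratio of -0.32. Of these, 1 (9.09%) was at least 1.5-fold higher and 2 (18.2%) at least 1.5-fold lower, against 9.41% and 4.63% of all genes. Igf1, the ligand that dominates growth after birth, was the highest, at 3.75 FPKM in control lung and 7.97 FPKM in knockout lung, 2.12-fold higher (1.88 to 2.40). Irs1, a receptor substrate, was the lowest, at 3.91 and 1.81 FPKM, 2.17-fold lower (1.85 to 2.55). Grb7, an adaptor of the Grb10 family named after its values were seen, was also lower, at 14.4 and 9.12 FPKM. The receptor that clears IGF2, encoded by the imprinted gene Igf2r, was 1.25-fold higher (1.17 to 1.34), at 12.0 and 15.0 FPKM. The kinase genes Akt1 (61.2 and 72.4 FPKM) and Akt2 (32.2 and 37.2 FPKM) were the most abundant of this list.

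IGF-binding proteins carry the ligands in tissue fluid and limit their access to receptors. The 7 genes over the floor for them, their proteases and protease inhibitors had a median log2 ratio of 0.27. Of these, 2 (28.6%) were at least 1.5-fold higher and 1 (14.3%) at least 1.5-fold lower, against 9.41% and 4.63% of all genes. Igfbp2 was the highest, at 183 FPKM in control lung and 317 FPKM in knockout lung. Igfbp4, named after its values were seen, was 1.51-fold higher (1.43 to 1.58), and Igfbp3 was the lowest, at 48.2 and 9.97 FPKM. Igfbp7 was the most abundant, at 474 and 571 FPKM. Among RNA-binding and chromatin proteins that act with Igf2 in the fetus, 5 of 7 were below the floor, with Igf2bp1 at 0.355 and 0.293 FPKM, Igf2bp3 at 0.298 and 0.228 FPKM and Lin28b listed at 0. Of the remaining pair, Igf2bp2 was at 4.43 and 4.23 FPKM and Hmga1 was 2.06-fold higher (1.67 to 2.55), at 5.13 and 10.6 FPKM.

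Of 6 other inhibitors of cyclin-dependent kinases over the floor, 3 (50%) were at least 1.5-fold higher and 0 at least 1.5-fold lower. Among all genes these shares were 9.41% and 4.63%. Cdkn3, a phosphatase gene of dividing cells, was the highest and was over the floor through knockout lung alone. It was at 0.297 FPKM in control lung, from about 3.79 reads, and 8.49 FPKM in knockout lung, 28.6-fold higher (10.8 to 107). Cdkn2c and Cdkn2d, named after their values were seen, were 2.71-fold (2.29 to 3.22) and 1.57-fold higher (1.34 to 1.85). The closest relatives of Cdkn1c were Cdkn1a, at 56.1 and 59.2 FPKM, and Cdkn1b, the lowest of the list at 35.4 and 23.5 FPKM. Of the 12 Notch pathway genes over the floor, listed for their relation to Dlk1, 2 were at least 1.5-fold higher and 2 at least 1.5-fold lower, from Jag2 (2.55-fold higher, 2.35 to 2.77) to Dll4 (1.66-fold lower, 1.52 to 1.80). The other two, named after their values were seen, were Heyl, a Notch target gene (8.60 and 14.4 FPKM), and Jag1, a ligand gene (11.4 and 6.85 FPKM). Dlk2, the paralogue of Dlk1, was below the floor at 0.0824 and 0.0537 FPKM.

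**Figure D4:**
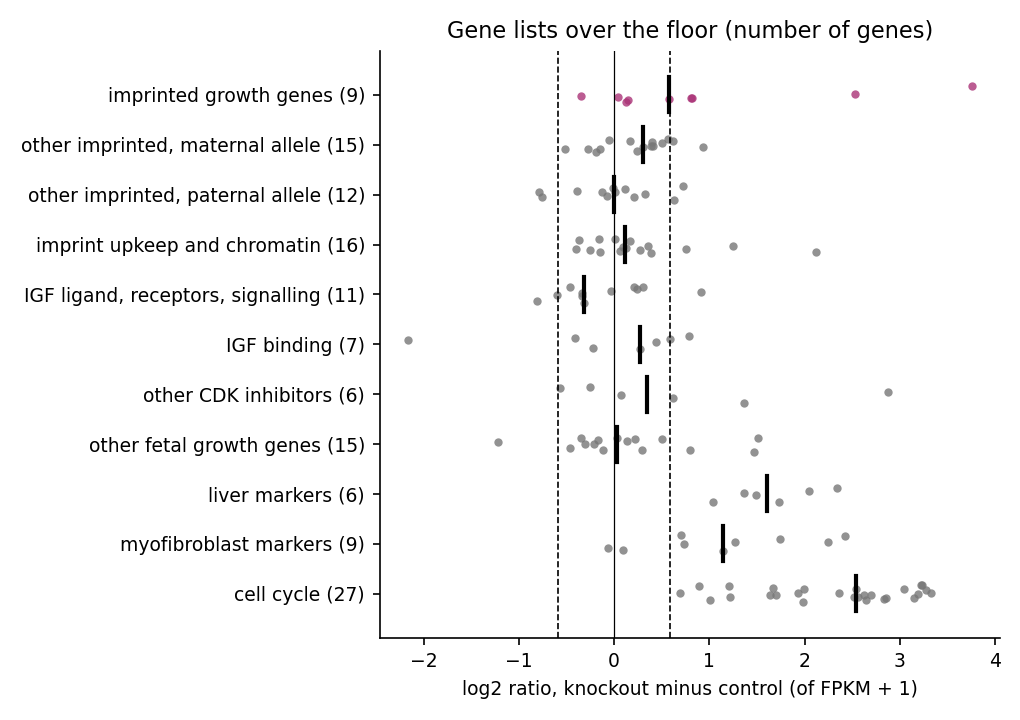
Log2 ratio, knockout minus control (of FPKM + 1), of genes over the floor in each list, with the number of genes in brackets, the list median as a black bar and dashed lines at a fold of 1.5. The members reach from Plagl1 at -0.35 to H19 at 3.75, the other imprinted lists stay between -0.79 and 0.94, and the liver, myofibroblast and cell cycle lists lie mostly to the right.

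Several marker lists were higher in knockout lung, as were H19, Mest, Igf2 and Meg3. All 27 cell cycle genes were at least 1.5-fold higher, with summed levels of 120 FPKM in control lung and 569 FPKM in knockout lung. They ranged from Mcm4, a helicase gene (8.35 and 14.2 FPKM), to Ccna2, the cyclin A2 gene (2.27 and 31.9 FPKM). Of the 27, 2 were under 1 FPKM in control lung and passed the floor through knockout lung alone. Among all genes over the floor, 9.41% were at least 1.5-fold higher and 4.63% at least 1.5-fold lower. Of 9 myofibroblast markers over the floor, 7 were at least 1.5-fold higher and 0 lower, with sums over the list of 176 and 588 FPKM, from Fgf18, a growth factor gene (4.46 and 4.24 FPKM), to Eln, the elastin gene (61.9 and 336 FPKM). Of 15 fibroblast markers, 5 (33.3%) were at least 1.5-fold higher and 1 (6.67%) lower, with sums of 2402 and 2824 FPKM. They ranged from Inmt (1189 and 626 FPKM) to Fn1, the fibronectin gene (54.9 and 186 FPKM), with 9 above equality and 6 below it. Of 7 smooth muscle markers 3 (42.9%) were higher and of 6 mesothelial markers 2 (33.3%) were higher, with 0 lower in either list. The higher ones, some of them named after their values were seen, were the collagen genes Col1a1, Col1a2 and Col3a1 with Mfap4 and Fn1 among fibroblast markers, Tagln, Actg2 and Smtn among smooth muscle markers, and Msln and Lrrn4 among mesothelial markers. The lowest of these lists were Lmod1 (2.20 and 2.24 FPKM) for smooth muscle and Rspo1 (6.24 and 5.45 FPKM) for mesothelium. The sums were 148 and 285 FPKM for smooth muscle and 90.3 and 127 FPKM for mesothelium. The part of these cell types in the differences of the members was not tested.

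Liver genes, listed because fetal liver is rich in H19 and Igf2, were also higher in knockout lung. Of the 6 over the floor, 5 were under 1 FPKM in control lung and passed it through knockout lung alone, so that a count of higher genes in this list is largely set by the floor. Of all 7 listed, 7 had a higher FPKM in knockout lung, Ambp included (0.431 and 1.34 FPKM), and the list summed to 12.9 FPKM in control lung and 71.5 FPKM in knockout lung. Alb, the albumin gene, was 5.52-fold higher (4.87 to 6.28), at 8.98 and 49.6 FPKM. Fgb, a fibrinogen gene, had the lowest log2 ratio of the 6 over the floor, at 0.431 and 1.94 FPKM. Afp, the albumin relative of fetal liver, was below the floor at 0.191 and 0.422 FPKM, and the 3 embryonic globin genes were listed at 0 in both pools. The part of liver transcripts in the H19 and Igf2 differences was not tested.

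Of 12 neuroendocrine markers 9 were below the floor, with sums of 9.60 and 9.02 FPKM, and the defining Chga was at 0.0279 FPKM in control lung and listed at 0 in knockout lung, while Uchl1, also a gene of neurons, was the most abundant (4.12 and 5.39 FPKM). All 10 skeletal muscle markers were below the floor (sums of 2.54 and 2.86 FPKM), with Myog and Myod1 listed at 0 in both pools. Of 8 cartilage markers 6, Col2a1 and Acan included, were listed at 0 in both (sums of 5.18 and 4.42 FPKM), and Chad made up most of the sums (5.07 and 4.08 FPKM). Of 8 adipose markers 6 were below the floor (sums of 9.14 and 7.42 FPKM), with Ucp1 and Lep at 0 in both. The other two, both genes of lipid metabolism, were Cidec (6.10 and 2.87 FPKM, 2.13-fold lower) and Thrsp (2.09 and 3.36 FPKM). Nerve markers summed to 2.79 and 4.49 FPKM, and Tubb3 alone was over the floor, at 0.400 and 2.87 FPKM. Endothelial markers summed to 1272 and 1308 FPKM, with 2 of 10 at least 1.5-fold higher (Kdr and Emcn) and 3 lower (Cldn5, Erg and Vwf), of which Kdr, Erg and Vwf were named after their values were seen. Alveolar type 1 markers summed to 3332 and 2629 FPKM, with 0 of 8 at least 1.5-fold higher and 2 lower (Rtkn2 and Emp2, the latter named likewise) and Pdpn the highest (69.6 and 89.2 FPKM). Alveolar type 2 markers summed to 24084 and 21246 FPKM, with 0 of 10 past that fold in either direction. They ranged from Sftpa1 (1207 and 808 FPKM) to Lamp3 (140 and 157 FPKM). Among all genes over the floor, 9.41% were at least 1.5-fold higher and 4.63% at least 1.5-fold lower.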

How the data were processed

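Whole-lung RNA was sequenced as 1 pooled library per genotype, and the label's genotype gave the group. FPKM values (fragments scaled by transcript length and library size) were deposited by the authors for 28107 RefSeq transcripts. Per the file headers, another column holds coverage, a per-base read depth that runs parallel to FPKM in each library. The submitters' processing notes name the build mm9 and the tool DESeq without a role. The aligner, quantification tool and use of strand are not given here in any source, so reads of overlapping genes cannot be told apart.

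FPKM was summed over the transcripts of a symbol (Python 3.11.15, pandas 2.3.3). The log2 ratio is log2(FPKM + 1), knockout minus control, which understates differences of low genes. Genes whose mean FPKM reached 1 were counted, at a fold of 1.5 on that scale. All 20 transcript records of the members had status OK. FPKM divides by the library total, so abundant transcripts can shift other values.

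Reads were approximated as coverage times length over the bases that 1 read adds, 47.5 in the control library and 47.6 in the knockout library. This is the median of that product over genes with 1 transcript where it lay between 36 and 64 bases, the lowest peak. From them came exact conditional (Clopper-Pearson, SciPy 1.17.1) 95% intervals of FPKM ratios and exact Poisson intervals of levels, tested on simulated data. No p-values were computed.

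The members and the 24 lists were chosen with earlier results of these data known. The text names all members and takes other names from a set rule, except where it says that a gene was named after its values were seen: per list both extremes of the log2 ratio and the 2 most abundant genes over the floor, and, of genes within 500 kb of a member, the nearest over the floor on each side and listed imprinted genes. Some of the most abundant genes are left out. Genes below the floor may be named as such. Promoters and microRNAs are from RefSeq tables (GRCm38.p6). A promoter was tied to a transcript record where the GENCODE M21 start of that accession lay within 50 bases of its start. Alternatives were other pseudocounts, floors, scalings and ways of summing transcripts.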

Additional observations from a re-analysis of the deposited data

How the results depend on the processing

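With 1 library per genotype no replicate could be left out. No paired analysis was possible because each group holds a single pooled library. Over 9 alternative settings, H19, Mest, Meg3 and Igf2 stayed above equality and Plagl1 below it wherever they were counted. H19 ranged from 2.56 to 5.39 and Mest from 2.13 to 2.78 on the log2 scale, both with a pseudocount of 3 at the lower end and of 0.1 at the upper. The count of members at least 1.5-fold higher was 5 with a pseudocount of 0.1, which adds Ndn. It was 3 with a pseudocount of 3, which leaves out Igf2, and 2 with a floor of 5, which leaves 6 members to count. Among all genes the share was 11.8%, 6.39% and 8.20% in these settings, against 9.41% in the main analysis. No setting put a member at least 1.5-fold lower. Peg3 was at -0.01 under 1 scaling and above 0 under the others. With a floor of 5, 745 of 9088 genes were at least 1.5-fold higher and 392 lower, against 1217 and 599 of 12929 in the main analysis. With a pseudocount of 3, 371 of 12929 were lower. Depth limits H19 in control lung, at about 12.7 reads, and Mirg, at 1.99 and 5.97.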

Other observations

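Genes that keep up imprints or silence chromatin made up a list of 19, of which 16 were over the floor. Of these, 3 (18.8%) were at least 1.5-fold higher in knockout lung and 0 were at least 1.5-fold lower, against 9.41% and 4.63% of all genes, with a median log2 ratio of 0.11 against 0.05. The highest was Uhrf1, which brings the maintenance methyltransferase to newly copied DNA, at 1.75 FPKM in control lung and 10.9 FPKM in knockout lung, 6.25-fold higher (5.04 to 7.82). The other two, named after their values were seen, were Dnmt1, that methyltransferase gene, at 9.65 and 17.0 FPKM, and Ezh2, a histone methyltransferase gene of dividing cells, at 3.11 and 8.75 FPKM. Trim28, a corepressor that guards imprints, was 1.32-fold higher (1.22 to 1.41), and Arid4b was the lowest, at 9.27 and 6.77 FPKM. The abundant Ehmt2 was level, with a fold of 1.01 (0.935 to 1.09).

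Other genes known from fetal growth were split. The 15 over the floor, 3 of which were under 1 FPKM in control lung, had a median log2 ratio of 0.03. Of the 15, 3 (20%) were at least 1.5-fold higher and 1 (6.67%) at least 1.5-fold lower, against 9.41% and 4.63% of all genes. The higher ones were E2F factors of the cell cycle, led by E2f7 at 0.466 FPKM in control lung and 3.18 FPKM in knockout lung, with E2f8 (0.437 and 2.97 FPKM) and E2f3 (1.71 and 3.70 FPKM) named after their values were seen. Sox11, a transcription factor gene of embryonic tissues, was the lowest, at 4.24 and 1.24 FPKM, 3.41-fold lower (2.83 to 4.15). Gpc3, an X-linked glypican gene that restrains growth, was 1.43-fold higher, at 72.9 and 104 FPKM, and Tbx2 was 1.28-fold lower (1.22 to 1.34).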
